A study of Mus musculus with 9 samples.

Results

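Interferon regulatory factors (IRFs) are transcription factors that share a DNA-binding domain and act on the genes that cells switch on in response to interferon. The genes described here are the 8 members *Irf1*, *Irf2*, *Irf3*, *Irf4*, *Irf5*, *Irf7*, *Irf8* and *Irf9*. They were taken by name from the 55228 genes in the table of raw counts, and all 8 were among the 15253 genes that passed the filter on low counts and were tested. RNA-seq was performed on 9 cultures of HC11 cells, a mammary epithelial cell line derived from a BALB/c mouse, with 3 cultures of each line. *WT* is the parental line, which was not cloned. *KD1* and *KD2*, labelled as *Vangl2* knockout 1 and knockout 2, were made by nucleofection with CRISPR/Cas9, a single guide and a repair template carrying stop codons, and each was grown from a single colony, so that each edited line is 1 clone. All cultures were undifferentiated, received no treatment and were kept in a growth medium of 10% FBS to which insulin (5 µg/mL) and EGF (10 ng/mL) had been added.

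In uninfected cells IRF3 and IRF7 wait in the cytoplasm until sensors of foreign RNA or DNA activate kinases that phosphorylate them, after which they enter the nucleus and drive the interferon genes. Secreted interferon then acts through Janus kinases on STAT proteins, of which STAT2 joins IRF9 in the complex ISGF3 on the interferon-stimulated response element (ISRE), while STAT dimers bind the gamma-activated site (GAS). IRF1 is an activator and IRF2 largely a repressor at related sites, IRF5 acts in inflammatory signalling, and IRF4 and IRF8 are best known from lymphoid and myeloid cells. In the mammary epithelium, JAK and STAT proteins are best known as the route of prolactin.

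Between 19231428 and 28360592 reads per culture were counted on genes, and a floor of 3 counts amounted to 0.0999 to 0.154 CPM, the count of a gene divided by the size of its library after TMM scaling. *KD2* replicate 3 stood apart from the other cultures of its line, with a chi-square value per degree of freedom of 17.4 and 22.1 against 1.74 between the other two. *WT* replicate 1 stood apart less, at 10.7 and 13.1 against 3.38. Without *WT* replicate 1 the members that changed still numbered 7 in *KD1* and 5 in *KD2*, and without *KD2* replicate 3 they numbered 5 in *KD2*. The *Vangl2* transcript had a mean of 3.85 CPM in *WT* (SD 0.421, n = 3), against 2.48 CPM in *KD1* (SD 0.513) and 4.00 CPM in *KD2* (SD 0.399), so its level does not check the label of *KD2*. Of 8 markers of mammary epithelium, 7 exceeded the floor in every culture of every line and *Krt19* had no count in any. Of the 7, 4 rose and 0 fell in *KD1*, among them *Epcam*, *Cdh1* and *Trp63*, while 1 rose and 5 fell in *KD2*, among them the same 3 genes. Fibroblast markers summed to 127 to 182 CPM in *WT*, but to 25.8 to 28.9 in *KD1* and 1110 to 1300 in *KD2*, most of which was *Vim*, at means of 145, 18.3 and 1090 CPM. *Dcn*, *Lum* and *Thy1* had at most 6 counts in any culture. Of 5 tested, 4 fell in *KD1*, including *Col1a1*, *Col1a2* and *Pdgfrb*, and in *KD2* 4 rose, including *Col1a2* and *Pdgfrb*, and 1 fell, *Col1a1*. At the limit used for all these markers, an adjusted p under 0.05, many genes changed. Over all tested genes, 26.9% were higher and 30.0% lower in *KD1*, and 34.0% and 33.3% in *KD2*. The part of these differences in the results on the IRFs was not tested. In bulk RNA a larger share of cells expressing a gene and more transcript per cell cannot be told apart.

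The comparison of each edited line with *WT* asks how the IRF transcripts differ between lines in which *Vangl2* was targeted and their parent. In *KD1*, 7 of the 8 members were higher than in *WT* at an adjusted p under 0.05, where 26.9% of all tested genes were higher and 30.0% lower, and 0 members were lower. The exception was *Irf3*. Of these 7, 5 were also more than 2-fold higher (*Irf1*, *Irf4*, *Irf5*, *Irf7* and *Irf8*), against 9.34% of all genes called higher and 7.49% called lower on both limits. In *KD2*, 5 members were higher (*Irf1*, *Irf5*, *Irf7*, *Irf8* and *Irf9*) and 0 lower, against 34.0% of all genes higher and 33.3% lower. More than 2-fold higher in *KD2* were 3 members, *Irf1*, *Irf7* and *Irf8*, where 14.5% of all genes were called higher and 6.71% lower. The cultures did not overlap with *WT* for the members that changed, 7 in *KD1* and 5 in *KD2*, and over all tested genes they did not overlap for 68.8% and 67.9%, so that 5 of 8 is near the general share. Both comparisons use the same *WT* cultures. The filter was passed by *Irf4* only through its *KD1* counts, by *Irf8* only through *KD2* and by *Irf7* only through the edited lines, so those 3 had to differ between lines in order to be tested, and the counts of members lend no support to a pattern of the family as a whole.

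**Figure D1:**
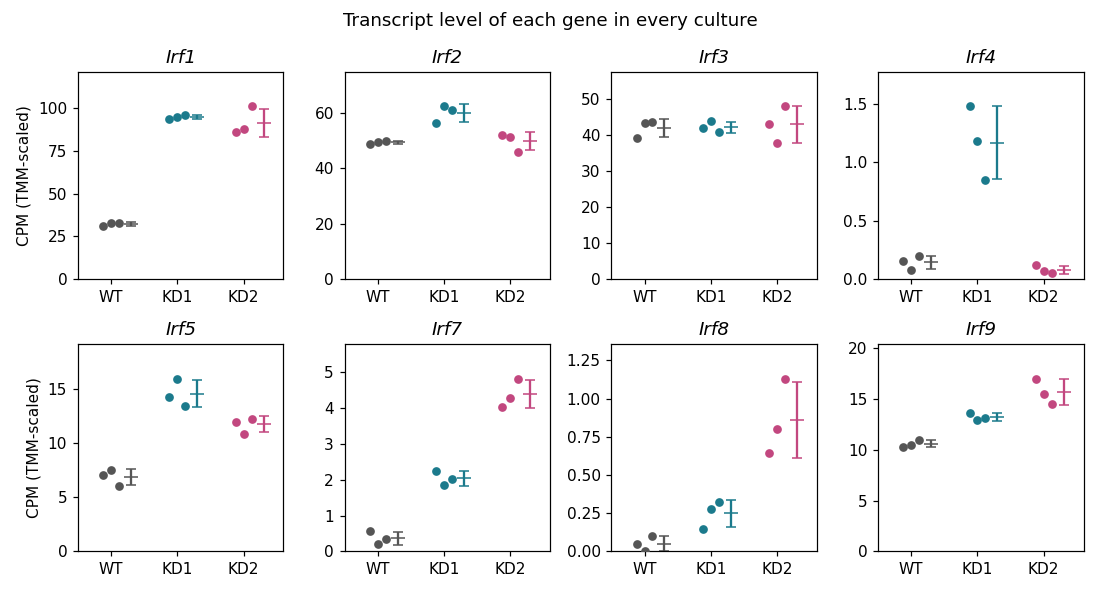
TMM-scaled CPM of each of the 8 genes (y axes from 0, differing between panels) in each of the 3 cultures of *WT*, *KD1* and *KD2* (points), with the mean and SD beside them. *Irf1* lies between 31.1 and 33.1 CPM in *WT* and at 85.8 CPM or more in both edited lines, *Irf3* overlaps across the lines, and *Irf4* is raised in *KD1* while *Irf8* is highest in *KD2*.

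Compared per kilobase of merged exons (RPKM), *Irf3* was the most abundant of the 8 transcripts in *WT*, at 12.2 ± 0.710 RPKM (SD, n = 3), followed by *Irf1* at 8.13 ± 0.263 and *Irf2* at 6.67 ± 0.0669. *Irf5* and *Irf9* were at 2.38 ± 0.251 and 1.97 ± 0.0614 RPKM. The remaining 3 were scarce, with *Irf7* at 0.0976, *Irf4* at 0.0292 and *Irf8* at 0.00703 RPKM. In *KD1* and *KD2* the first place passed to *Irf1*, at 23.9 ± 0.308 and 23 ± 2.06 RPKM, which was 45.5% and 45.6% of the summed RPKM of the 8 genes against 25.9% in *WT*. That sum was 31.5 ± 0.968 RPKM in *WT*, 52.5 ± 1.05 in *KD1* and 50.4 ± 3.08 in *KD2*. The lower places kept their order, except that *Irf8* lay above *Irf4* in *KD2*. No neighbours in the order overlapped between cultures within any line. With the length of the longest annotated transcript in place of merged exons, the order was the same in all 3 lines.

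**Figure D2:**
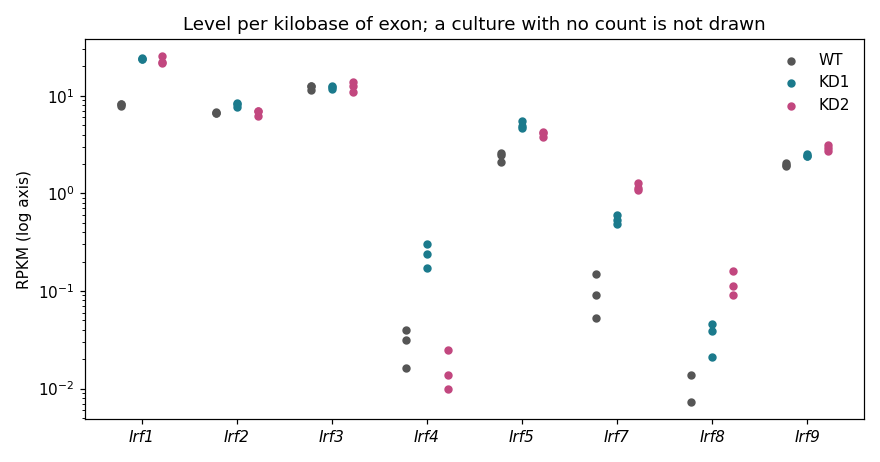
Level of each gene per kilobase of merged exons (RPKM, log axis) in the 3 cultures of each line (points), where the 1 *WT* culture with no *Irf8* count is not drawn. *Irf3* leads in *WT* at 12.2 RPKM and *Irf1* leads in both edited lines, while *Irf4*, *Irf7* and *Irf8* reach at most 1.28 RPKM.

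*Irf3* encodes the factor that responds first to nucleic acid sensing, and its protein is present before any stimulus. In the GRCm38 build it occupies bases 44997648 to 45002848 of chromosome 7, plus strand, and 88 bases of its exons overlap *Bcl2l12* on the other strand. Its level was 39.1, 43.2 and 43.5 CPM in *WT*, 41.9, 43.8 and 40.8 in *KD1* and 43.0, 37.7 and 47.9 in *KD2*. The 3 lines overlapped, and the widest spread was in *KD2*, where replicate 3 was highest. The log2 fold change relative to *WT*, given with its standard error (SE), was 0.01 for *KD1* (SE 0.0824, adjusted p = 0.95) and 0.03 for *KD2* (SE 0.0826, adjusted p = 0.78), all adjusted p-values here being those of the quasi-likelihood fit in edgeR. Neither sign held under all alternatives.

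*Irf7* encodes the factor that amplifies interferon production and is itself an interferon-induced gene. It is on the minus strand of chromosome 7 (141262706 to 141266481), with 45 bases of exon shared with *Phrf1* on the other strand. Its counts were 11, 5 and 7 in *WT*, 61, 47 and 50 in *KD1* and 100, 129 and 98 in *KD2*, so that the 3 lines were ordered without overlap. In CPM these were 0.368 ± 0.183, 2.04 ± 0.203 and 4.39 ± 0.397 (SD, n = 3). Relative to *WT* the log2 fold change was 2.51 for *KD1* (SE 0.277, adjusted p = 3.2e-06) and 3.60 for *KD2* (SE 0.25, adjusted p = 2.3e-08). The ratio of the summed counts was 5.78 in *KD1* (95% exact interval 3.72 to 9.38) and 12.3 in *KD2* (8.06 to 19.7). The reads carried no molecular identifiers, so these and later intervals of this kind cover counting error only. *Irf7* was 2.14-fold higher in *KD2* than in *KD1* (log2 fold change 1.10, SE 0.177, adjusted p = 8e-05).

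*Irf5*, an inflammatory factor activated downstream of Toll-like receptors, was at 7.12, 7.52 and 6.10 CPM in *WT*, 14.3, 16 and 13.5 CPM in *KD1* and 12, 10.9 and 12.3 CPM in *KD2*. Every culture of both edited lines exceeded every *WT* culture. It was 2.10-fold higher in *KD1* (log2 fold change 1.07, SE 0.106, adjusted p = 9.8e-07) and 1.69-fold higher in *KD2* (0.76, SE 0.108, adjusted p = 2.7e-05). The gene is on chromosome 6, plus strand (29526625 to 29541871), where 411 bases of its exons overlap *Tnpo3* on the opposite strand and 11.0% of its windows of 50 bases recur in transcripts of other genes. The sources used here do not state whether counting took strand into account, so reads in the overlap could belong to either gene.

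*Irf1*, an activator of antigen presentation and interferon-gamma response genes, is on the plus strand of chromosome 11 (53770014 to 53778374), and *Gm17334* overlaps 135 bases of its exons on the opposite strand. Its level was 31.1, 32.8 and 33.1 CPM in *WT*, 93.7, 94.9 and 96.1 CPM in *KD1* and 85.8, 87.7 and 101 CPM in *KD2*. The edited lines stood well above *WT* and overlapped each other. Relative to *WT* it was 2.93-fold higher in *KD1* (log2 fold change 1.55, adjusted p = 2.4e-10) and 2.82-fold in *KD2* (1.50, adjusted p = 5.3e-10). Between the lines, the log2 fold change of *KD2* against *KD1* was -0.05 (SE 0.0659, adjusted p = 0.48), a sign that turned with library size alone as the scaling (0.07), and without *KD2* replicate 3, its highest culture, the value was -0.12 with an adjusted p of 0.021.

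*Irf2*, which competes with IRF1 for the same sites, lies on chromosome 8, plus strand (46739732 to 46847458), and no other gene overlaps its exons. It was at 48.8, 49.4 and 49.8 CPM in *WT*, 56.3, 62.3 and 61.1 in *KD1* and 52.1, 51.3 and 45.9 in *KD2*. *KD1* lay above both other lines, and *KD2* replicate 3 was the lowest of all 9 cultures. *Irf2* was 1.21-fold higher in *KD1* than in *WT* (log2 fold change 0.28, SE 0.0655, adjusted p = 0.0023). For *KD2* the log2 value was 0.01 (SE 0.0660, adjusted p = 0.86), of no stable sign under the alternatives. The ratio of *Irf1* to *Irf2* in RPKM, taken from the line means, thus stood at 8.13 to 6.67 in *WT*, 23.9 to 8.10 in *KD1* and 23 to 6.73 in *KD2*.

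Reference promoter sequence was read for all 8 members from RefSeq (GRCm38.p6), as 300 bases from 250 before to 50 after each annotated start, and 3 motifs were searched on both strands: for the ISRE, GAAA, any 2 bases and GAAA, for the GAS, TTC, any 3 bases and GAA, and for the ETS-IRF composite element, which IRF4 and IRF8 bind with a partner, GGAA, any 2 bases and GAAA. The 8 genes have 11 such windows, since 3 of them have a second annotated start. Matches were found in the windows of *Irf1*, *Irf2* and *Irf8*, which are printed here because each holds at least 1 match. Capitals mark the matched bases, and in *Irf2* the ETS-IRF composite and ISRE matches overlap in the first capital run. HC11 comes from another mouse strain than the reference, and its own sequence was not read.
*Irf1*, chr11:53769764-53770063, plus strand: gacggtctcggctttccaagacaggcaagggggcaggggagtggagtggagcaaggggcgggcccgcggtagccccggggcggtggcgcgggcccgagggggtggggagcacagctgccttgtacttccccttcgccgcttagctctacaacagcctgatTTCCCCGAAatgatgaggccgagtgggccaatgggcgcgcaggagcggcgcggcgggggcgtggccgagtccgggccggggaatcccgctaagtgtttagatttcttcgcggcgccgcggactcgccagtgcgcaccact
*Irf2*, chr8:46739495-46739794, plus strand: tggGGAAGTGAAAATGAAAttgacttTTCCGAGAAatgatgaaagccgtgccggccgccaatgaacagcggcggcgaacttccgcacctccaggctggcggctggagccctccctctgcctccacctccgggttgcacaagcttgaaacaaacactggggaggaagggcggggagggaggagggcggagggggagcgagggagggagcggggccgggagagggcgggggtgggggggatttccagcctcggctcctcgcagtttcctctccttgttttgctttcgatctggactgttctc
*Irf8*, chr8:120736108-120736407, plus strand: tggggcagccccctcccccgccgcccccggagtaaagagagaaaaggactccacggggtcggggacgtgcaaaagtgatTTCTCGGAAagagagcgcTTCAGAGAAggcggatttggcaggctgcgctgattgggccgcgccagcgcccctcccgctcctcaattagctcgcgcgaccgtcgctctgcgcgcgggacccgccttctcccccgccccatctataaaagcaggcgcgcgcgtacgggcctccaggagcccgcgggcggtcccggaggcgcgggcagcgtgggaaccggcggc

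The window of *Irf1* held 1 GAS match that began 90 bases before the start, with flanks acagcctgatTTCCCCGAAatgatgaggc (chromosome 11, 53769924 to 53769932). *Irf2* held an ISRE match 241 bases, an ETS-IRF composite match 247 bases and a GAS match 224 bases before its start. *Irf8* held 2 GAS matches, 171 and 153 bases before its start. Among the 27025 genes with a window in the table, 9.55% held a GAS match, 3.99% an ISRE match and 3.16% an ETS-IRF composite match, against 3, 1 and 1 of the 8 members. A match describes letters in the reference and is no measure of binding, and where no match was found only these letters are missing from the window.

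*Irf9* encodes the DNA-binding subunit of ISGF3. It is on the plus strand of chromosome 14 (55603571 to 55610030) and shares 123 exon bases with *Rnf31*, which runs on the same strand, so that reads there cannot be assigned by strand. Its level was 10.3, 10.5 and 11.0 CPM in *WT*, 13.6, 12.9 and 13.1 CPM in *KD1* and 17.0, 15.5 and 14.5 CPM in *KD2*. The 3 lines did not overlap. It was 1.24-fold higher in *KD1* (log2 fold change 0.32, SE 0.0860, adjusted p = 0.0063) and 1.48-fold higher in *KD2* (0.56, SE 0.0851, adjusted p = 4.9e-05).

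*Stat2*, which encodes a partner of IRF9 in ISGF3, rose with it, and by more in *KD2* than in *KD1*. *Stat2* had a mean of 9.39 ± 0.989 CPM in *WT* (SD, n = 3), 18.0 ± 0.533 in *KD1* and 29.1 ± 1.09 in *KD2*, or 0.93 and 1.63 above *WT* on the log2 scale (adjusted p = 5.3e-07 for *KD1* and 1.3e-09 for *KD2*). In *KD2* against *KD1* the log2 fold change was 0.70 for *Stat2* (adjusted p = 2.2e-06) and 0.25 for *Irf9*. Per kilobase, *Stat2* and *Irf9* were at 1.58 and 1.97 RPKM in *WT*, 3.03 and 2.45 RPKM in *KD1* and 4.91 and 2.91 RPKM in *KD2*. *Irf9* was therefore the more abundant of the pair in *WT* and the less abundant in both edited lines, with no overlap between cultures.

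*Irf8*, best known for its role in monocytes and dendritic cells, is on chromosome 8, plus strand (120736358 to 120756694), with no exon overlap. It had 1, 0 and 2 counts in *WT*, 4, 7 and 8 in *KD1* and 16, 24 and 23 in *KD2*. Each line lay above the one before it, though the counts were few in all 9 cultures. The summed counts were 5.33 times those of *WT* in *KD1* after scaling (95% exact interval 1.57 to 28.1) and 18.2 times in *KD2* (5.94 to 90.5). Both changes passed the threshold (adjusted p = 0.017 for *KD1* and 2.7e-05 for *KD2*), but the one in *KD1* missed it without *WT* replicate 2 (log2 fold change 1.67 against 2.29, adjusted p = 0.078) or *KD1* replicate 3 (2.07, adjusted p = 0.059). Without *WT* replicate 3 it was 3.21. In *KD2* the log2 fold change of 4.05 became 3.42 without *WT* replicate 2 and 4.96 without *WT* replicate 3, and stayed past the threshold. In *KD2* the highest level was 1.13 CPM, and per kilobase the mean of 0.122 RPKM was far under the 23 RPKM of *Irf1* in the same cultures.

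*Irf4*, a factor of activated lymphocytes and plasma cells, differed most of the 8 between the edited lines. It lies on the plus strand of chromosome 13 (30749226 to 30766976) without exon overlap. Its counts were 3, 2 and 4 in *WT*, 40, 30 and 21 in *KD1* and 3, 2 and 1 in *KD2*. All *KD1* cultures exceeded all others, and *WT* and *KD2* overlapped near the floor. In *KD1* the log2 fold change was 3.03 (SE 0.388, adjusted p = 1.3e-05) and the ratio of summed counts 8.50 (95% exact interval 4.29 to 19.2). In *KD2* the log2 fold change was -0.76 (SE 0.678, adjusted p = 0.35) and the ratio 0.577 (0.169 to 1.82), so that a difference from *WT* was not detectable at this depth.

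Since *Irf4* and *Irf8* mark blood cells, 12 leukocyte markers were read beside them. *Ptprc*, the pan-leukocyte phosphatase CD45, had at most 2 counts in any culture, and *Adgre1* and *Tyrobp* had 0 in all 9. *Csf1r*, a receptor of macrophages, had 1 to 2 counts in *WT*, 6 to 13 in *KD1* and 0 to 3 in *KD2*. Summed over the list, the *WT* cultures had 3.22 to 6.04 CPM, those of *KD1* 13 to 15.3 CPM and those of *KD2* 4.97 to 6.20 CPM. Most of this was *Cd68*, at means of 4.10, 7.56 and 4.02 CPM, together with *Flt3* at 6.02 CPM in *KD1* and *Lyz2* at 1.32 CPM in *KD2*. Of the 12, 3 were tested. *Cd68* and *Flt3* were higher in *KD1*, with *Flt3*, a receptor kinase of blood progenitors, at 141 to 167 counts in *KD1* and at most 4 elsewhere, and *Lyz2* was higher in *KD2*, at 27 to 41 counts against at most 1. *Flt3* passed the filter only through *KD1* and *Lyz2* only through *KD2*, so each had to be higher there to be tested. *Spi1*, which encodes the partner PU.1 of IRF4 and IRF8, had 1 to 3 counts in *WT*, 9 to 20 in *KD1* and 0 to 1 in *KD2*. The related partner gene *Spib* had 3 to 10, 3 to 11 and 23 to 40 counts in the same order and passed the threshold in *KD2* only (adjusted p = 2e-04). However, *Spib* passed the filter only through its *KD2* counts, so that it had to be higher there to be tested. These marker and partner genes were singled out after their values were seen. Of 8 genes that IRF4 and IRF8 control in blood cells, 3 were tested, of which 2 rose and 0 fell in *KD1*, and 0 rose and 1 fell in *KD2*. The 2 became 1 without *WT* replicate 1 or 2, and 0 without *KD1* replicate 2 or 3. Of the 3 tested, 1 passed the filter only through the edited lines, and of the other 2, 1 rose in *KD1*. Over all tested genes, 26.9% were higher and 30.0% lower in *KD1*, and 34.0% and 33.3% in *KD2*. The gene that fell in *KD2* was *Prdm1*, with 0.850 ± 0.204 CPM in *WT* (SD, n = 3), 1.34 ± 0.204 in *KD1* and 0.340 ± 0.0952 in *KD2*. The part of the differences in *Flt3*, *Cd68*, *Csf1r* and *Lyz2* in the results on *Irf4* and *Irf8* was not tested.

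**Figure D3:**
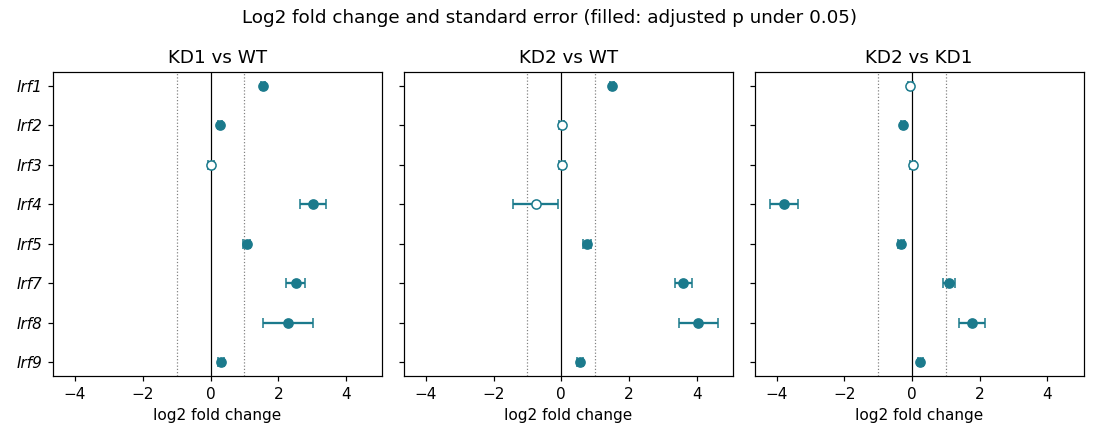
Log2 fold change (x axis) with its standard error for each gene in *KD1* against *WT*, *KD2* against *WT* and *KD2* against *KD1*, with filled points for an adjusted p under 0.05 and dotted lines at a 2-fold change. *Irf4* is at 3.03 in *KD1* and at -3.79 between the lines, and *Irf3* is near 0 in all panels.

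The direct contrast of the edited lines tests where their IRF transcripts differ. At an adjusted p under 0.05, 3 members were higher in *KD2* than in *KD1* (*Irf7*, *Irf8* and *Irf9*) and 3 lower (*Irf2*, *Irf4* and *Irf5*), against 34.8% of all genes higher and 33.0% lower. On both limits 2 were higher and 1 lower, where 14.7% and 8.58% of all genes were. The cultures of the edited lines did not overlap for 6 members and for 71.6% of all genes. Counted in both directions, the 6 of 8 members are therefore near the general share, and the count says nothing particular about the family. The 3 that were higher in *KD2* had log2 fold changes of 1.10, 1.76 and 0.25, and the 3 that were lower had -0.27, -3.79 and -0.32 for *Irf2*, *Irf4* and *Irf5*. *Irf4* was 13.9-fold lower (SE 0.416, adjusted p = 1.9e-06). *Irf8* was 3.38-fold higher (adjusted p = 0.001), with a ratio of summed counts of 3.41 (95% exact interval 2.02 to 6.04). The smaller differences were less stable: *Irf9* (adjusted p = 0.016) lost its call in 5 of 16 alternatives, *Irf5* (adjusted p = 0.011) in 3 and *Irf2* (adjusted p = 0.0025) in 1.

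Because the edited lines are clones, the genes around each member were read in the same fit. For *KD2*, the 493 other tested genes on the chromosome of *Irf9* had a median log2 fold change of -0.47 and the 83 within 2 Mb one of -0.44, where *Irf9* was at 0.56. For *Irf4* in *KD2*, at -0.76, the median was -0.66 on chromosome 13 and -0.43 within 2 Mb. *Irf8* and *Irf2* lie on chromosome 8, whose median was -0.27 in *KD1* and -0.19 in *KD2*. *Irf5* lies on chromosome 6, where the median was 0.03 in *KD1* and 0.23 in *KD2*. *Irf1*, *Irf3* and *Irf7* lie on chromosomes with medians between 0.00 and 0.15. The 49 tested genes within 2 Mb of *Irf1* had medians of 0.32 in *KD1* and 0.17 in *KD2*, under the 1.55 and 1.50 of *Irf1* itself. What part the surroundings have in the change of a member was not tested.

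**Figure D4:**
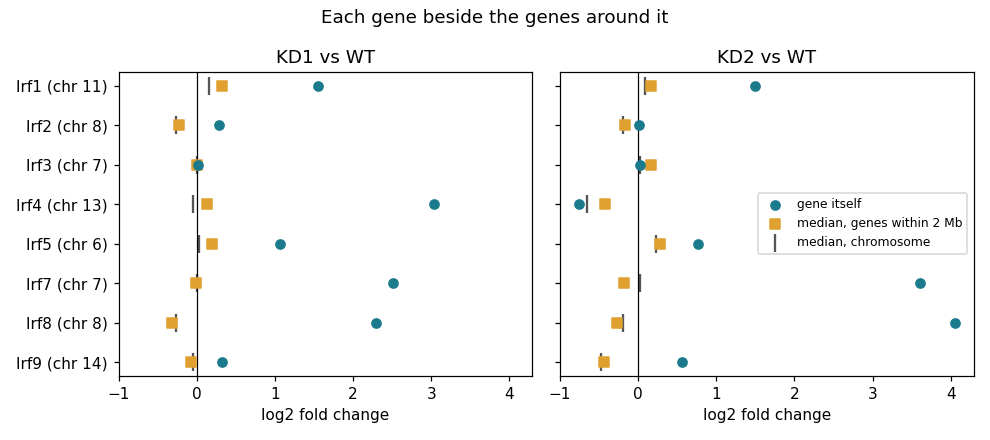
Log2 fold change of each gene (circles), median of the tested genes within 2 Mb (squares) and median of its chromosome (ticks), in *KD1* and *KD2* against *WT*. *Irf9* is at 0.56 in *KD2* while chromosome 14 has a median of -0.47, and *Irf4* in *KD2* lies near the median of chromosome 13.

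For each member, the 2 genes of similar pattern were found as those with the highest Pearson correlation of log2 CPM over the 9 cultures, which fall into 3 lines of 3, so that the value mostly describes the line means. *Irf1* was closest to *Ksr1* (r = 0.997) and *Marcksl1* (0.996), which also stood at like levels in *KD1* and *KD2*, with log2 fold changes of 4.39 and 4.16 for *Ksr1* and 1.27 and 1.23 for *Marcksl1*. *Irf7* was closest to *H2-M3* (0.989), an MHC class Ib gene, and *Gbp3* (0.987), an interferon-induced GTPase. *Irf8* was closest to *Bin1* (0.981) and *Cd14* (0.978), and *Irf9* to *Zbtb26* (0.989) and *2610020C07Rik* (0.988). *Irf4* was closest to *Noct* and *Ppp2ca* (0.980 for both), and *Irf2* to *Slu7* (0.976) and *Acbd3* (0.972). *Irf5* went with *Kremen1* (0.988) and *Zfp941* (0.986), and *Irf3* with *Mvk* (0.964) and *AI837181* (0.945).

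The genes that act before and after the IRFs were read from lists. Of 14 interferon genes 0 passed the filter and 6 had a count in any culture. *Ifnk* had 2 to 5 counts in *WT*, 4 to 5 in *KD1* and 4 to 9 in *KD2*. *Ifng* had 0 to 1, 0 to 3 and 1 to 7 counts in the same order, and *Ifnb1* had 0 in *WT*, 0 to 1 in *KD1* and 1 to 2 in *KD2*. *Ifne* had 0 to 3 counts in *WT*, 0 to 1 in *KD1* and 1 in each culture of *KD2*. *Ifnl2* had at most 1 count, in *WT* only, and *Ifnz* at most 1, in *KD2* only. Differences between the lines were not tested at such counts. Of 18 tested sensors, adaptors and kinases that act on IRF3, IRF5 and IRF7, 10 were higher and 3 lower in *KD1*, and 12 were higher and 5 lower in *KD2*, with medians of 0.20 and 0.30 on the log2 scale against -0.03 and 0.01 over all tested genes. Over all tested genes 26.9% were higher and 30.0% lower in *KD1*, and 34.0% and 33.3% in *KD2*, and the 5 lower sensors are near that last share. *Ikbke*, a kinase of IRF3 and IRF7, had 13.4 ± 0.655 CPM in *WT* (SD, n = 3), 145 ± 3.59 in *KD1* and 26.2 ± 1.99 in *KD2*. Its log2 fold changes were 3.44 and 0.97 (adjusted p = 1.1e-13 and 6.7e-08). *Zbp1*, a sensor of Z-form nucleic acids, was at 0.188 ± 0.133 CPM in the parental cells and reached 14.3 ± 0.801 and 5.23 ± 0.519 CPM in the edited lines. It passed the filter only through the edited lines, and of the other 17 tested, 9 were higher in *KD1* and 11 in *KD2*. *Ifih1*, the RNA sensor MDA5, rose from 6.36 ± 0.802 CPM to 28.8 ± 1.61 and 41.1 ± 4.13.

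Of 11 tested receptor, Janus kinase and STAT genes, 9 were higher and 1 lower in *KD1*, and 8 were higher and 2 lower in *KD2*, with medians of 0.27 and 0.45. The general shares, over all tested genes, were 26.9% higher and 30.0% lower in *KD1*, and 34.0% and 33.3% in *KD2*. The medians of all tested genes were -0.03 and 0.01. The receptor genes *Ifngr2*, *Il10rb* and *Ifnar2* differed from *WT* by 1.24, 1.09 and 0.98 in *KD1* and by 0.20, 0.59 and 0.68 in *KD2* on the log2 scale, and all 6 changes passed the threshold. Of 10 tested genes for IRF-binding partners and inhibitors, 3 were higher and 3 lower in *KD1*, and 5 were higher and 2 lower in *KD2*, with medians of 0.00 and 0.60. The counts for *KD1* equal the general shares to within 1 gene and say nothing about this list. *Spib* passed the filter only through *KD2*, and of the other 9 genes, 3 were higher in *KD1* and 4 in *KD2*. Those 4 of 9 are near the general share of 34.0%, so the count for *KD2* says nothing particular about this list either. *Socs3* and *Socs1*, feedback inhibitors of Janus kinases, were higher in both lines, by 1.50 and 1.12 in *KD1* and by 1.08 and 0.69 in *KD2* on the log2 scale. *Trim21*, a ubiquitin ligase that is itself induced by interferon, rose by 0.69 and 1.51.

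Of 24 genes known as targets of ISGF3, all tested, 19 were higher in *KD1* and 24 in *KD2*, and 0 were lower in either. More than 2-fold higher were 13 in *KD1* and 22 in *KD2*, and the medians were 1.94 and 2.73. Over all tested genes, 26.9% were higher in *KD1* and 34.0% in *KD2*, and 9.34% and 14.5% were more than 2-fold higher. However, 11 of the 24 were not above the limit of the filter (0.392 CPM) in every *WT* culture, and passed through the edited lines, so they had to be higher there to be tested. *Mx1*, *Mx2*, *Oas2* and *Ifi44*, among the 11, passed only through *KD2*, so only there did they have to be higher. They did not pass the threshold in *KD1*. Of the other 13, 12 were higher in *KD1* and 13 in *KD2*. *Rsad2*, which encodes the antiviral enzyme viperin, had 0.228 ± 0.0712 CPM in *WT* (SD, n = 3), 27.4 ± 0.808 in *KD1* and 4.01 ± 0.423 in *KD2*. *Oas1a* and *Oas3*, synthetases of the activator of RNase L, reached 4.77 ± 0.498 and 3.96 ± 0.0730 CPM in *KD1* and 8.02 ± 1.11 and 3.31 ± 0.460 CPM in *KD2*, from 0.211 and 0.0608 CPM in *WT*. *Rsad2*, *Oas1a* and *Oas3* are all among the 11 that passed through the edited lines. Of 22 genes known as targets of IRF1, 19 were tested. In *KD1* 16 were higher and in *KD2* 18, with 0 lower in either, and 11 and 17 were more than 2-fold higher, with medians of 1.52 and 3.54. Here 9 of the 19 passed only through the edited lines, and of the other 10, 10 were higher in *KD1* and 9 in *KD2*. *Gbp3* and *Gbp4*, interferon-induced GTPases, reached 9.11 ± 0.783 and 1.13 ± 0.378 CPM in *KD1* and 25.3 ± 1.87 and 14.6 ± 1.73 CPM in *KD2*, from 0.537 and 0.0963 CPM in *WT*. *Nos2*, the inducible nitric oxide synthase, went the other way between the lines, with 169 ± 1.28 CPM in *KD1* and 9.88 ± 0.970 CPM in *KD2*. *Gbp3*, *Gbp4* and *Nos2* are among the 9 that passed only through the edited lines. Between the lines, 14 of the 19 IRF1 targets were higher in *KD2* and 3 lower, while *Irf1* itself did not pass the threshold there. Over all tested genes, 34.8% were higher in *KD2* than in *KD1* and 33.0% lower. *Psmb8*, *Vcam1* and *Gbp5*, all among the 14, passed the filter only through *KD2*, so they had to be higher there to be tested. Many genes of both target lists are known to answer to more than 1 IRF.

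**Figure D5:**
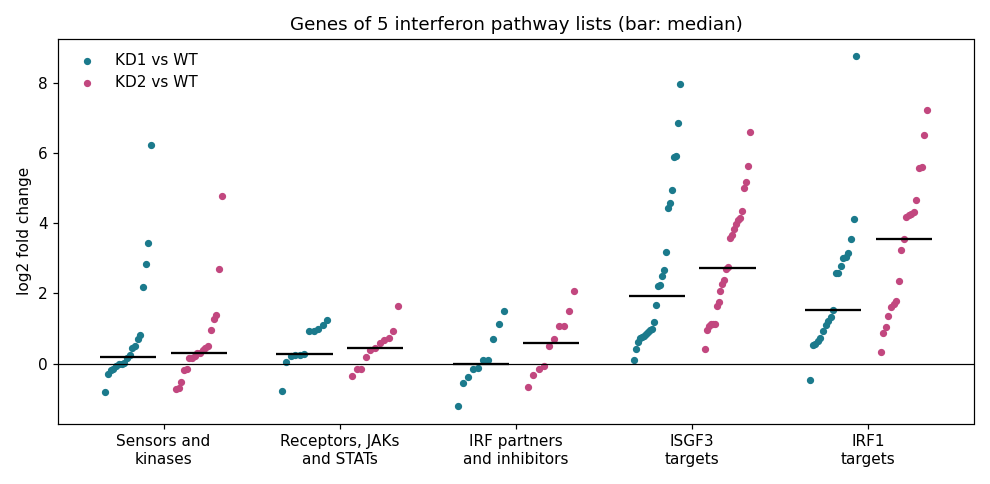
Log2 fold change against *WT* (y axis) of each tested gene in 5 lists, in *KD1* and *KD2* (points sorted within each list), with black bars for medians. The medians of the ISGF3 targets are 1.94 and 2.73 and those of the IRF1 targets 1.52 and 3.54, while the sensor, receptor and partner lists have medians between 0.00 and 0.60.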

How the data were processed

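The authors deposited raw whole-number counts of reads per gene for 9 cultures. Before that, per the methods and the submitters' processing notes, the authors used fastp for adapter and quality filtering, HISAT2 for alignment to GRCm38 and featureCounts for a total per gene over its exons. Their strand setting and the handling of reads that map to several places are not given in the sources used here. Groups and replicate numbers were taken from the sample titles, and 0 columns were left without a culture. The study calls its replicates biological, and since each edited line is 1 clone, p-values measure the spread between cultures of these lines.

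Counts were tested with edgeR 4.0.16 in R 4.3.3 (quasi-likelihood test, TMM scaling, expression filter on the 3 lines, all 9 cultures in 1 fit without covariates), with Benjamini-Hochberg adjustment over the 15253 genes tested. "Higher", "lower" and "changed" mean an adjusted p under 0.05, and the 2-fold limit is that of the study's methods. Each standard error is the size of the log2 change divided by the square root of F. Lengths, positions and overlaps came from GENCODE M21 (GRCm38), in which 53569 of 55228 gene names matched. Ratios of summed counts carry 95% exact conditional binomial intervals. The fit was tested on simulated data. Alternatives were DESeq2 1.42.0, median-of-ratios or library-size scaling, no filter or at least 10 counts in every culture, only the 6 cultures compared, the replicate number as a block, and leaving out each culture. Replicates differed by 1.37 to 22.1 in chi-square per degree of freedom, where counting error alone gives about 1. The *KD1* pairs were at 1.37 to 1.81 and *KD2* replicates 1 and 2 at 1.74, so these cultures differed little beyond counting error. All cultures were nevertheless counted as separate.

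The members and lists were chosen with earlier results of these data known, and the lists were written from general knowledge. Named genes are the members, *Vangl2*, *Stat2*, up to 3 genes per list with the largest mean change among those changed in both lines, and 2 genes of like pattern per member (mean log2 CPM above 1, prior count 2). Other markers, ligands, partners and targets were named after their values were seen. Some further genes are not reported here.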

Additional observations from a re-analysis of the deposited data

Results flagged for a closer look

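The effects of the edited lines on 6 members differed from each other by the direct contrast of *KD2* with *KD1* (edgeR quasi-likelihood fit). The log2 fold change was -3.79 for *Irf4* (adjusted p = 1.9e-06), which was raised in *KD1* and near the floor in *KD2*. It was 1.76 for *Irf8* (adjusted p = 0.001) and 1.10 for *Irf7* (adjusted p = 8e-05), both raised in each line and more in *KD2*. It was 0.25 for *Irf9* (adjusted p = 0.016), -0.32 for *Irf5* (adjusted p = 0.011) and -0.27 for *Irf2* (adjusted p = 0.0025). Over all tested genes 34.8% were higher and 33.0% lower in this contrast, so 6 of 8 is near the general share.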

How the results depend on the processing

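The number of members changed was 7 in *KD1*, 5 in *KD2* and 6 between the lines. Requiring 10 counts in every culture left 5 members to test, of which 4, 3 and 3 changed, since it drops *Irf4*, *Irf7* and *Irf8*. Adding the 2-fold limit left 3 in *KD2* and 3 between the lines. Leaving out 1 culture gave 6 to 7, 5 to 5 and 4 to 7. Between the lines the 4 came without *KD1* replicate 2 and the 7 without *KD2* replicate 3. Library size alone, which moved the median of all genes in *KD2* from 0.01 to 0.12, gave 4 between the lines, with *Irf2* and *Irf5* no longer past the threshold, and turned *Irf1* there to 0.07. The other reversals were of values near 0. *Irf3* in *KD1* went to -0.01 with library size alone and ranged from -0.04 to 0.06 with 1 culture left out, in *KD2* it went to 0.00 without a filter and ranged from -0.03 to 0.12, and between the lines it went to -0.02 without a filter and ranged from -0.06 to 0.11. *Irf2* in *KD2* went to -0.02 without a filter and ranged from -0.02 to 0.09. Levels per kilobase moved with the longest transcript as the length, and their order did not. Same-numbered cultures did not deviate together (mean correlation 0.00116, from -0.0652 to 0.0789 over 9 pairs), and with the replicate block the members changed numbered 7, 5 and 6. Counts of a few per culture limit *Irf4* and *Irf8*.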
